A study of Mus musculus with 6 samples.

Results

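The 41 genes described here are the microglial genes of the deposited table: genes of resting (homeostatic) microglia, genes shared by macrophages, and genes of activated microglia. They were taken by gene symbol, and all 41 are among the 22851 rows. The study asked which genes depend on Edf1 in multiciliated ependymal cells, the ciliated cells that line the brain ventricles. Radial glial cells, the neural stem cells of the developing brain, were isolated from the brains of C57BL/6J mice at postnatal day 0 to 3, grown in DMEM with 10% fetal bovine serum, and then differentiated without serum for 6 days. The 2 groups were WT cells and cells from Edf1 knockout mice made with CRISPR/Cas9, with 3 libraries each, called biological replicates in the design text. The Edf1 protein is small and is known from work on transcription, where it bridges factors, and on translation, where it recognises ribosomes that have run into each other. The labels name knockout mice, so microglia in the cultures carry the knockout as the glia do, and effects that arise in either cell type cannot be told apart. The labels do not say how many mice were pooled for a culture or how many founder lines were used.

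Microglia are the resident macrophages of the brain, descend from the yolk sac and not from the neural lineage, and are usual companions of glia in cultures made from newborn brain. They depend on the receptor encoded by Csf1r and on the transcription factor PU.1, encoded by Spi1. In the resting state they express surface sensors such as P2ry12, Gpr34, Cx3cr1 and Tmem119, and in disease or culture they can lower these genes and raise others, such as Spp1, Lpl, Itgax and Cst7. The label of the samples names multiciliated ependymal cells alone, and no step that removes or enriches microglia is described in it.

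Total counts were 13071766 to 28087006 per library, and 14243 genes had enough counts to be tested. Levels are given as CPM, counts scaled to a common library size, in the order of replicates 1, 2 and 3, and means with the SD of n = 3. Differences are log2 fold changes of knockout against WT with their standard error (SE), from edgeR's quasi-likelihood test with p-values adjusted by Benjamini-Hochberg across the tested genes (threshold 0.05). Edf1 itself had 82.6, 85.8 and 80.1 CPM in WT and 9.83, 10.9 and 13.2 CPM in the knockout, a log2 change of -2.85 (SE 0.091), in the direction of the labels in all 6 libraries. All 10 ependymal markers, such as Foxj1, were detected in every library, and all 10 fell in the knockout, with a summed level of 1749 to 1953 CPM in WT and 1025 to 1084 CPM in the knockout and the largest changes in Hdc (-1.45, SE 0.08) and Tmem212 (-1.40, SE 0.12). In RNA from whole cultures, fewer microglia and less RNA of a gene per microglial cell cannot be told apart.

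Most of the microglial genes fell in the Edf1 knockout. Of the 41 genes, 39 could be tested, 30 fell, 1 rose (Pf4) and 8 did not pass the threshold. Among all tested genes 26.9% changed, of which the falls made up 14.2% and the rises 12.7% of the genes tested. The median log2 fold change of the 39 genes was -0.42, against 0.0029 over all tested genes. All 3 knockout libraries were below all 3 WT libraries for 31 of the 39 genes and above them for 2 (Cd14 and Pf4), where the shares over all tested genes were 22.1% and 21.2%. The 41 genes together held 0.972% to 1.011% of the counts in WT libraries and 0.7801% to 0.793% in knockout libraries. Their summed level in WT was 9749 to 10265 CPM. Much of it came from Ctsd (3086 ± 124.5 CPM) and Ctsb (1454 ± 75.9 CPM), genes of many cell types. The share is therefore not one of microglia alone. Siglech and Cd163 had too few counts for a test, with at most 5 and 2 counts in a library. The fall was uneven: 5 genes (Cst7, Gpr34, P2ry13, P2ry12 and Mrc1) fell more than 2-fold, which 1.69% of all tested genes did, and 25 fell by less.

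**Figure D1:**
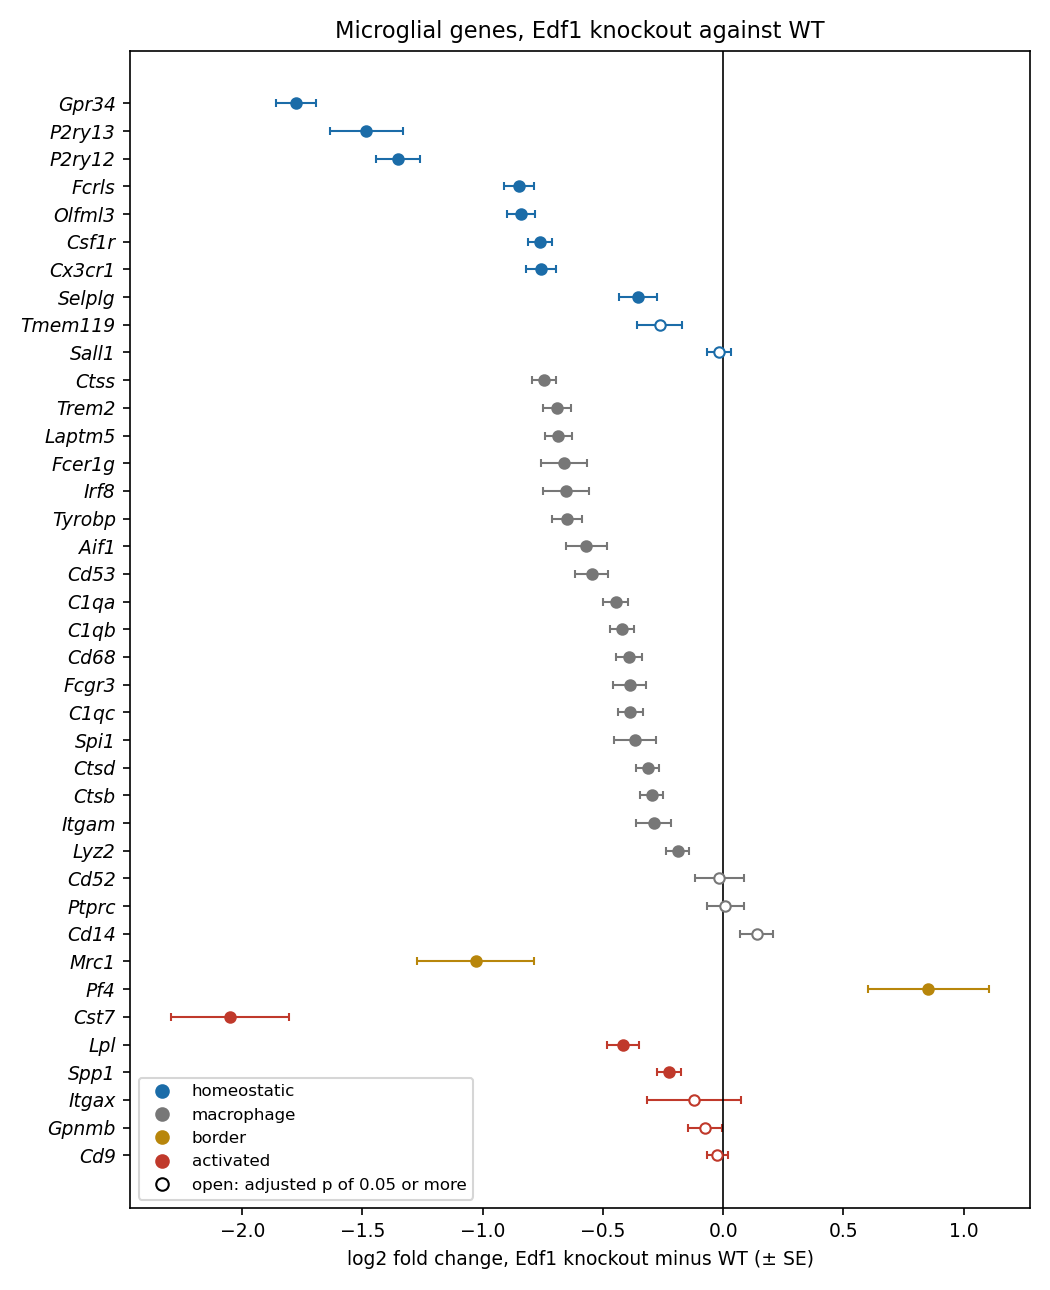
Log2 fold change of Edf1 knockout against WT (horizontal axis) for the 39 tested microglial genes, grouped by the class each was listed in, with bars of ± 1 SE. Filled points passed the threshold. Homeostatic genes reach from -1.78 for Gpr34 to -0.017 for Sall1, and Pf4 at 0.85 is the filled point to the right of 0.

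The receptors by which resting microglia sense nucleotides, lipids and chemokine had the lowest median of the role groups, -1.42 on the log2 scale. Gpr34, a receptor for lysophosphatidylserine, had 39.5, 39.8 and 39.3 CPM in WT and 11.6, 10.3 and 12.5 CPM in the knockout. P2ry12, the ADP receptor that steers microglial processes to injury, had 21.3, 20.04 and 20.7 CPM in WT and 8.73, 7.63 and 8.07 CPM in the knockout. P2ry13, a second ADP receptor, had 8.85, 10.1 and 9.24 CPM in WT and 3.26, 2.73 and 3.86 CPM without Edf1. The groups were well apart for all 3 genes, and the knockout means were 29%, 39.4% and 34.9% of the WT means. The log2 fold changes were -1.78 (SE 0.085), -1.35 (SE 0.092) and -1.48 (SE 0.15), with adjusted p-values of at most 1.84e-05 by edgeR. Cx3cr1, the receptor for the neuronal chemokine fractalkine, fell less, from 90.9, 80.7 and 88.1 CPM to 53.2, 49.8 and 51.2 CPM, a log2 change of -0.76 (SE 0.062). Among the 14243 tested genes ordered from the largest fall, Gpr34 was number 18, P2ry13 number 53, P2ry12 number 82 and Cx3cr1 number 494.

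P2ry12 and P2ry13 are neighbours, 5.4 kb apart on the minus strand at chr3:59216272-59262871 and chr3:59207892-59210882 in GENCODE M21 (GRCm38, the build named in the submitters' processing notes). Both lie inside Med12l on the opposite strand, and Gpr34 (chrX:13632089-13640858) lies inside Cask. The counting rule for strand is not given in the sources used here, so the host genes were read as well. Med12l had a log2 change of 0.034 (SE 0.1) and did not pass the threshold, and Cask rose by 0.24 (SE 0.067), so neither host gene fell with the gene inside it. Exons of Gpr34 and P2ry13 overlap no exon of another gene on the opposite strand, and those of P2ry12 do over 0.35% of their length.

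The windows from 250 bases before to 50 after the annotated start of P2ry12 and P2ry13 are shown because these neighbours fell together (RefSeq, GRCm38.p6, minus strand, chr3:59262936-59263235 and chr3:59210833-59211132). Capitals would mark the motifs searched, described with the transcription factors below, and neither window holds one.
P2ry12: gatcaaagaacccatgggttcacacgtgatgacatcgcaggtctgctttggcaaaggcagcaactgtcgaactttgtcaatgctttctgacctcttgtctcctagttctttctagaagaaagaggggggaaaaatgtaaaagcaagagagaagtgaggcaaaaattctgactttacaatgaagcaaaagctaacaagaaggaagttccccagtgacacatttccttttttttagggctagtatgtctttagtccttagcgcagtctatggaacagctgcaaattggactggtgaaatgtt
P2ry13: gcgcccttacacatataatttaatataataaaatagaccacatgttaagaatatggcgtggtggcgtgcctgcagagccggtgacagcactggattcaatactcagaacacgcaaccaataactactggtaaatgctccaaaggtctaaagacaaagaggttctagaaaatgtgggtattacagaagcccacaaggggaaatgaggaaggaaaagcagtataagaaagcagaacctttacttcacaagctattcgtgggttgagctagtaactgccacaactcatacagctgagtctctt

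The other homeostatic genes moved by different amounts. Fcrls, an Fc receptor-like gene of mouse microglia, had 272, 293 and 271 CPM in WT and 159, 140.5 and 164 CPM in the knockout, and fell by 0.85 on the log2 scale (SE 0.063). Olfml3, which encodes a secreted olfactomedin-like protein, was 97.3 ± 5.25 CPM in WT and 54.3 ± 0.397 CPM without Edf1, and fell with a log2 change of -0.84 (SE 0.058). Selplg, which encodes the selectin ligand PSGL-1, changed least of the homeostatic genes that passed, at -0.35 (SE 0.08). Tmem119, a membrane protein used to tell microglia from blood macrophages, had 18.1, 18.1 and 20.5 CPM in WT and 16.4, 14.4 and 16.4 CPM in the knockout. Its groups did not overlap, yet the log2 change of -0.26 (SE 0.092) lay just outside the threshold (adjusted p = 0.0504 by edgeR). It passed without WT replicate 2, at -0.29 with an adjusted p of 0.0251 by edgeR, and over all alternatives its adjusted p ran from 0.0251 to 0.182. Siglech, a sialic acid-binding lectin gene of microglia and plasmacytoid dendritic cells, had 5, 5 and 2 counts in WT and 1, 0 and 2 in the knockout, too few to tell the groups apart.

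Csf1r, the receptor for the survival factors CSF1 and IL-34, had 293, 309.5 and 283 CPM in WT and 174, 170.1 and 178 CPM in the knockout, a log2 change of -0.76 (SE 0.05). All knockout libraries were below all WT libraries. Exons of Csf1r overlap those of Hmgxb3 on the opposite strand over 15.1% of their length, and Hmgxb3 had a log2 change of -0.13 (SE 0.061), which did not pass. Of 10 listed genes that encode ligands of microglial receptors, 6 rose and Tgfb1 fell, with a median log2 fold change of 0.28. Among all tested genes 12.7% rose and 14.2% fell. Which cells made the RNA of the ligand genes was not tested. Csf1 rose from 126 ± 4.59 to 155 ± 2.19 CPM (0.29, SE 0.051), while Il34, at 1.47 ± 0.5498 and 2.195 ± 0.401 CPM, did not pass (0.48, SE 0.29). Cx3cl1, the ligand of Cx3cr1, rose by 0.18 (SE 0.06, adjusted p = 0.0452 by edgeR). Tgfb2 rose by 0.45 (SE 0.077) and Tgfb1, a factor that maintains the homeostatic state, fell from 23.1 ± 2.35 to 17.05 ± 1.84 CPM (-0.43, SE 0.1). Pros1, a bridging ligand of the Axl and Mertk receptors, had 120.1, 117 and 123 CPM in WT and 163, 164 and 162 CPM in the knockout and rose by 0.44 (SE 0.049). Cd200 and Cd47, whose products restrain macrophages, rose by 0.36 and 0.27, and Gas6 (0.11) and Mfge8 (0.042) did not pass.

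The transcription factors of microglia did not move alike. Irf8, which acts with PU.1 in the myeloid lineage, had 28.01, 27.7 and 23.2 CPM in WT and 16.9, 15.3 and 17.8 CPM in the knockout, and fell by 0.65 on the log2 scale (SE 0.096). Spi1 itself had 30.4, 32.4 and 30.2 CPM and 22.1, 27.2 and 22.8 CPM, a smaller change of -0.37 (SE 0.089), with an adjusted p of 0.00862 by edgeR. When knockout replicate 3 was left out Spi1 no longer passed (-0.32, adjusted p = 0.0527 by edgeR), and over all alternatives its adjusted p was 0.00324 to 0.0527. Sall1, which upholds microglial identity and is also active in neural progenitors, had 138, 141 and 146 CPM in WT and 138, 142 and 140.1 CPM in the knockout. These ranges overlap, and the log2 change was -0.017 (SE 0.05), and the adjusted p 0.84 by edgeR. Of 10 other transcription and signalling factors of macrophages, 6 fell and none rose, with the largest falls among the more abundant ones for Cebpa (-0.75, SE 0.1) and Lyl1 (-0.65, SE 0.14). The count was 3 without knockout replicate 1. Runx1 (-0.043), Maf (-0.018), Tal1 (-0.81) and Batf3 (0.029) did not pass.

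PU.1 binds DNA at an extended GGAA core, so the start windows of the microglial genes were searched on both strands for GAGGAAGT and for the joint PU.1 and IRF element, GGAA followed after any 2 bases by GAAA. The letters of the 2 motifs can overlap. Of the 41 genes, 30 had a RefSeq window. The first motif was found in 5 of the 30 genes (C1qc, Cd53, Ctss, Pf4 and Spp1) and in 3.69% of the 27025 genes with a window. The joint element was found in 1 (Cd68) and in 3.16% of all genes. A match describes these letters and does not show binding. The windows of Ctss and Cd53, which fell, and of Pf4, which rose, are shown with the match in capitals (GRCm38.p6; Ctss chr3:95526536-95526835 plus strand, Cd53 chr3:106790100-106790399 minus strand, Pf4 chr5:90772185-90772484 plus strand). In all 3 the match, read here on the other strand, begins within 10 bases of the annotated start: 2 bases before it in Ctss, 6 after it in Cd53 and 10 before it in Pf4. The matches in C1qc and Spp1 lie further away, 195 and 113 bases before the start.
Ctss: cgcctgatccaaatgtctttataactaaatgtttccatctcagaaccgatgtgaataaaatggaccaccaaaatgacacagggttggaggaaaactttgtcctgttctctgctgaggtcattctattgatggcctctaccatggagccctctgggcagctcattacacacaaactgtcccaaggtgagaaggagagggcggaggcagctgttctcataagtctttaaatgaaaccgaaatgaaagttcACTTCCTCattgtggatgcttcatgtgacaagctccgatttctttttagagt
Cd53: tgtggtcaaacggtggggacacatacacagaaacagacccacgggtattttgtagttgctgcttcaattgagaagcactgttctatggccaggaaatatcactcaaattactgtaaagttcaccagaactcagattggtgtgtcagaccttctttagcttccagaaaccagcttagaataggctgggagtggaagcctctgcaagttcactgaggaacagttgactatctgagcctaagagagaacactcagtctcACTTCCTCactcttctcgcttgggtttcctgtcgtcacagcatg
Pf4: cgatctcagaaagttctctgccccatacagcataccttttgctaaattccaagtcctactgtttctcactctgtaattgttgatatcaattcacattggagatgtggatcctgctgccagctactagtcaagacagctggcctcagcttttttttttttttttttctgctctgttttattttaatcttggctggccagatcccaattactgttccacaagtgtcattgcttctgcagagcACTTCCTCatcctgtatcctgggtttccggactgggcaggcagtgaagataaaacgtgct

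Trem2 and the receptors that signal through immunoreceptor (ITAM) adaptors fell together. Tyrobp, which encodes the adaptor DAP12 of Trem2, had 94.9, 109 and 99.4 CPM in WT and 64.5, 64.1 and 64.2 CPM in the knockout, a log2 change of -0.65 (SE 0.061). Trem2, a lipid and lipoprotein receptor, had 86.8, 83.9 and 87.2 CPM and 50.1, 54.2 and 55.2 CPM, a change of -0.69 (SE 0.058). The groups were clearly apart for both, and receptor and adaptor fell by like amounts. Fcer1g, the shared Fc receptor gamma chain, fell by 0.66 (SE 0.097), with WT replicate 2 high at 92.9 CPM against 72.7 and 69.9 CPM in the other WT libraries. Fcgr3, a low-affinity IgG receptor, fell by 0.39 (SE 0.068), but 17.7% of the 31-base stretches of its transcript also occur in another gene, most in Fcgr2b, which itself fell by 0.87, so its counts are uncertain.

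The 3 genes of complement C1q, the protein that tags synapses and debris for uptake, all fell. C1qa had 202, 207 and 195 CPM in WT and 143, 144 and 156 CPM in the knockout, a log2 change of -0.45 (SE 0.052). C1qb went from 197 ± 7.65 to 147 ± 3.04 CPM (-0.42, SE 0.05) and C1qc from 181 ± 6.91 to 138 ± 5.06 CPM (-0.39, SE 0.052). No knockout library reached a WT library for any of the 3. The genes stand next to each other at chr4:136880129-136898803 on the minus strand, in the order C1qb, C1qc, C1qa, with gaps of 3.6 and 2.9 kb.

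All 5 lysosomal and antimicrobial genes fell, by 0.19 to 0.75 on the log2 scale. Ctss, a cathepsin typical of macrophages, had 549, 609 and 559 CPM in WT and 339.8, 339 and 344 CPM in the knockout, a log2 change of -0.75 (SE 0.049). Ctsd, an aspartic protease of lysosomes in most cell types, was the most abundant of the 41 genes at 3035, 3228 and 2994 CPM in WT and 2469, 2559 and 2417 CPM in the knockout, and changed by -0.31 (SE 0.046). The knockout libraries were below the WT libraries for both. Ctsb, another cathepsin of many cell types, changed by -0.30 (SE 0.047), and the scavenger receptor gene Cd68 by -0.39 (SE 0.056). Lyz2, the lysozyme gene of myeloid cells, changed least, by -0.19 (SE 0.047), and it no longer passed when knockout replicate 1 was left out (-0.17, adjusted p = 0.0707 by edgeR; range over alternatives 0.0019 to 0.0707). Of the 31-base stretches of the Lyz2 transcript, 32.8% also occur in another gene, most in Lyz1, which had at most 2 counts in a library. Exons of Ctsb overlap those of Fdft1 on the opposite strand over 12.8% of their length, and Fdft1 fell by 0.20 (SE 0.058).

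Of 7 leukocyte surface and cytoskeleton genes 4 fell, while Ptprc, Cd52 and Cd14 did not pass. Laptm5, a lysosomal membrane protein of blood cells, had 146, 146 and 136 CPM in WT and 92.9, 88.99 and 84.7 CPM in the knockout and fell by 0.68 (SE 0.057). Aif1, the actin-binding protein IBA1 that is the usual stain for microglia, fell by 0.57 (SE 0.086), and the tetraspanin gene Cd53 by 0.55 (SE 0.07). Itgam, the integrin CD11b, fell by 0.29 (SE 0.072, adjusted p = 0.0106 by edgeR), a call lost without WT replicate 1 (-0.24, adjusted p = 0.0601 by edgeR; range over alternatives 1.23e-05 to 0.0601). By contrast Ptprc, the pan-leukocyte phosphatase CD45, had 55.5, 51.2 and 56.6 CPM in WT and 54.1, 49.6 and 60.4 CPM in the knockout. Its log2 change was 0.0086 (SE 0.076), with overlapping groups, and it turned negative without WT replicate 2 (-0.027) or knockout replicate 3 (-0.071). Cd52, a small glycoprotein of leukocytes, likewise overlapped, at 17.6 ± 0.233 and 17.3 ± 2.35 CPM (-0.016, SE 0.1, and 0.079 without knockout replicate 2).

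Border macrophages live in the meninges and around vessels, and the 3 of their genes among the 41 had low counts. Mrc1, the mannose receptor CD206, had 6.25, 3.73 and 5.73 CPM in WT and 2.77, 1.73 and 3.22 CPM in the knockout, and fell by 1.03 (SE 0.24, adjusted p = 0.00741 by edgeR). Pf4, a platelet and macrophage chemokine, had 1.24, 1.16 and 0.865 CPM in WT and 2.03, 2.005 and 1.95 CPM in the knockout, from 15 to 33 counts in WT libraries and 33 to 55 in knockout libraries. It rose by 0.85 (SE 0.25, adjusted p = 0.025 by edgeR), the single rise among the 41 genes. That call was lost without WT replicate 3 (0.71, adjusted p = 0.0875 by edgeR), without any 1 of the knockout libraries (adjusted p = 0.0681 to 0.0698 by edgeR) and in DESeq2 (0.86, adjusted p = 0.0572). Cd163, the hemoglobin scavenger receptor, had at most 2 counts in every library, and Lyve1, Cd209f and Clec10a, further markers of these cells, at most 3. In the further border list Folr2 rose (0.84, SE 0.21), Stab1 (-0.46, SE 0.049) and Siglec1 (-0.53, SE 0.18) fell, and Ms4a7 (0.069, SE 0.06), F13a1 and Clec4n did not pass. Not all of this list was low: Stab1 had 158 ± 3.82 CPM in WT and 115 ± 0.127 CPM without Edf1, and Ms4a7 69.5 ± 4.07 and 72.8 ± 2.18 CPM. Only 1 gene of this list fell in 8 of the 13 alternatives, and none rose without WT replicate 1 or knockout replicate 2.

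Of the 6 genes of activated microglia 3 fell, none rose, and the size of the change differed widely between them. Cst7, the inhibitor cystatin F that rises in disease-associated microglia, had 4.14, 3.65 and 3.404 CPM in WT and 1.23, 0.724 and 0.814 CPM in the knockout. It fell by 2.05 (SE 0.25, adjusted p = 6.03e-05 by edgeR), the largest fall of the 41 genes, from 47 to 110 counts in WT libraries to 13 to 23 in knockout libraries. Lpl, lipoprotein lipase, had 204, 193 and 213 CPM in WT and 152, 139 and 167 CPM in the knockout and fell by 0.42 (SE 0.067). Spp1, the secreted phosphoprotein osteopontin, had 394, 381 and 407 CPM and 327, 358 and 326 CPM and fell by 0.23 (SE 0.051, adjusted p = 0.00567 by edgeR). The 2 genotypes did not overlap in these 3 genes, with the changes of Lpl and Spp1 far smaller than that of Cst7. Itgax, the integrin CD11c, had 4.56, 3.03 and 3.296 CPM in WT and 3.44, 3.12 and 3.64 CPM in the knockout, with overlap, a change of -0.12 (SE 0.2) that did not pass and became 0.11 without WT replicate 1. Gpnmb, a lysosomal glycoprotein of lipid-laden macrophages, changed by -0.074 (SE 0.071), or 0.02 without knockout replicate 3. Cd9, a tetraspanin that glia also express, had 492, 506 and 486 CPM in WT and 489.5, 489.6 and 481 CPM in the knockout, and its log2 change of -0.024 (SE 0.042) did not pass.

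Set against each other, 4 homeostatic genes (P2ry12, Gpr34, Tmem119, Cx3cr1) had a lower median change than 4 activation genes (Spp1, Lpl, Cd14, Itgax). The median log2 fold change was -1.05 for the homeostatic set, with 3 of 4 lower, and -0.17 for the activation set, with 2 of 4 lower. Activation genes outside this set moved in both directions: Cst7 (-2.05, on few counts) and Clec7a (-0.87) fell, and Mmp12 rose (0.78). Of the 19 further activation genes tested, 6 fell and 6 rose. Which cells of the cultures made the RNA of each set was not tested, nor whether the gap reflects microglial state. Cd14, the co-receptor for bacterial lipopolysaccharide, had 53.9, 50.9 and 53.9 CPM in WT and 56.2, 54.6 and 63.9 CPM in the knockout, and its change of 0.14 (SE 0.069) did not pass (adjusted p = 0.156 by edgeR) although the groups did not overlap. The mean log2 CPM of the homeostatic set minus that of the activation set was -0.96, -0.83 and -0.85 in WT libraries against -1.69, -1.81 and -1.81 in knockout libraries. All 3 knockout libraries were lower than all 3 WT libraries on this difference. No p-value is given for such a score, because the genes were chosen with earlier results of these data known. Within the homeostatic set the change was not shared evenly: the log2 ratio of P2ry12 to Tmem119 was 0.23, 0.15 and 0.015 in WT libraries against -0.90, -0.90 and -1.01 in knockout libraries. Without WT replicate 1 the median of the activation set was -0.058 and the difference of the medians -0.96, against -0.88 with all libraries.

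**Figure D2:**
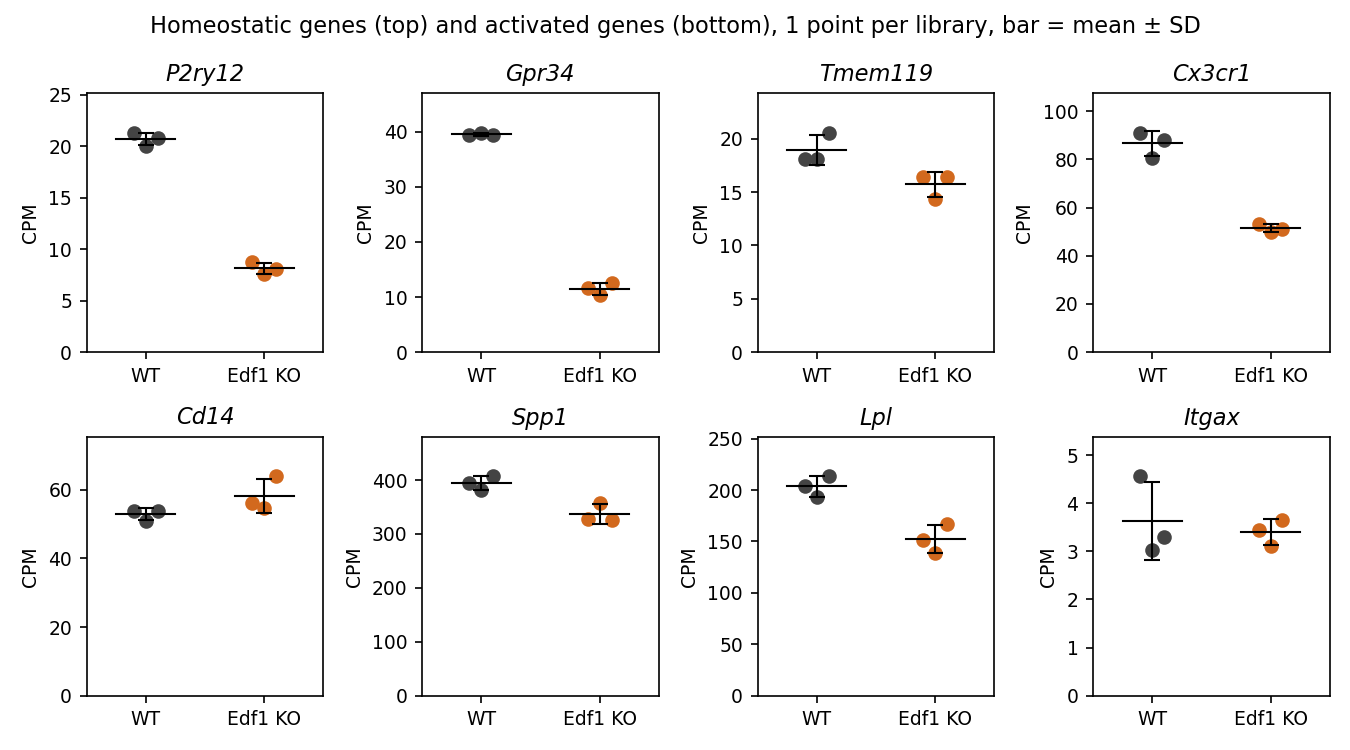
CPM in each library (vertical axis, from 0) of the 4 homeostatic genes in the top row and the 4 activation genes in the bottom row, with 1 point per library, WT left and Edf1 knockout right, and bars for the mean ± SD of 3 libraries. Gpr34 lies at 39.3 to 39.8 CPM in WT and 10.3 to 12.5 CPM in the knockout, while the points of Itgax overlap.

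To compare the genes within the macrophage signal, each gene was also expressed relative to 7 macrophage genes in the same library (Ptprc, Laptm5, Tyrobp, Fcer1g, Cd53, Spi1 and Itgam, with a gene left out of its own reference). The mean log2 CPM of the reference genes was 6.05, 6.11 and 6.06 in WT libraries against 5.59, 5.62 and 5.64 in knockout libraries. The reference genes did not fall alike. Ptprc (0.0086), Itgam (-0.29) and Spi1 (-0.37) changed less on the log2 scale than Cd53 (-0.55), Tyrobp (-0.65), Fcer1g (-0.66) and Laptm5 (-0.68). Of the 31-base stretches of the Itgam transcript, 74.12% also occur in another gene. On this relative scale 7 of 10 homeostatic genes were below WT in all knockout libraries, as were 3.47% of all tested genes, and Selplg and Sall1 were above. The reference fell in the knockout, which raises every gene on this scale. The share of all genes below WT is therefore low by construction. Gpr34 changed by -1.33, P2ry13 by -1.04 and P2ry12 by -0.88 relative to the reference genes, beyond the SD of 0.024 to 0.23 within a genotype. Cx3cr1 (-0.29), Csf1r (-0.30), Olfml3 (-0.38) and Fcrls (-0.40) were also lower, by less. These smaller differences depend on which genes serve as reference, and no other reference set was tested. Tmem119 overlapped between the genotypes, at -1.87, -1.93 and -1.69 in WT libraries against -1.55, -1.76 and -1.60 in knockout libraries. Of the 21 macrophage genes, which include the 7 reference genes, 5 were below WT in all knockout libraries, 8 were above and 8 overlapped. Those below were Ctss (-0.29), Laptm5 (-0.27), Trem2 (-0.24), Tyrobp (-0.23) and Cd53 (-0.11). Of these, Ctss and Laptm5 changed about as much as Cx3cr1 and Csf1r. The place of a reference gene, such as Laptm5, Tyrobp, Cd53 or Ptprc, only restates its change against the other reference genes. C1qa (0.008) and C1qb (0.035) overlapped, C1qc lay just above WT (0.069), and Spi1 (0.10), Fcgr3 (0.068), Cd68 (0.065) and Lpl (0.036) overlapped. Cd14 (0.59), Ptprc (0.54), Cd52 (0.42), Gpnmb (0.38) and Spp1 (0.23) were higher than WT in all knockout libraries on this scale, as were 80.3% of all tested genes, whose median was 0.46. On this scale Cst7 changed by -1.48 and Pf4 by 1.28, both on few counts.

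**Figure D3:**
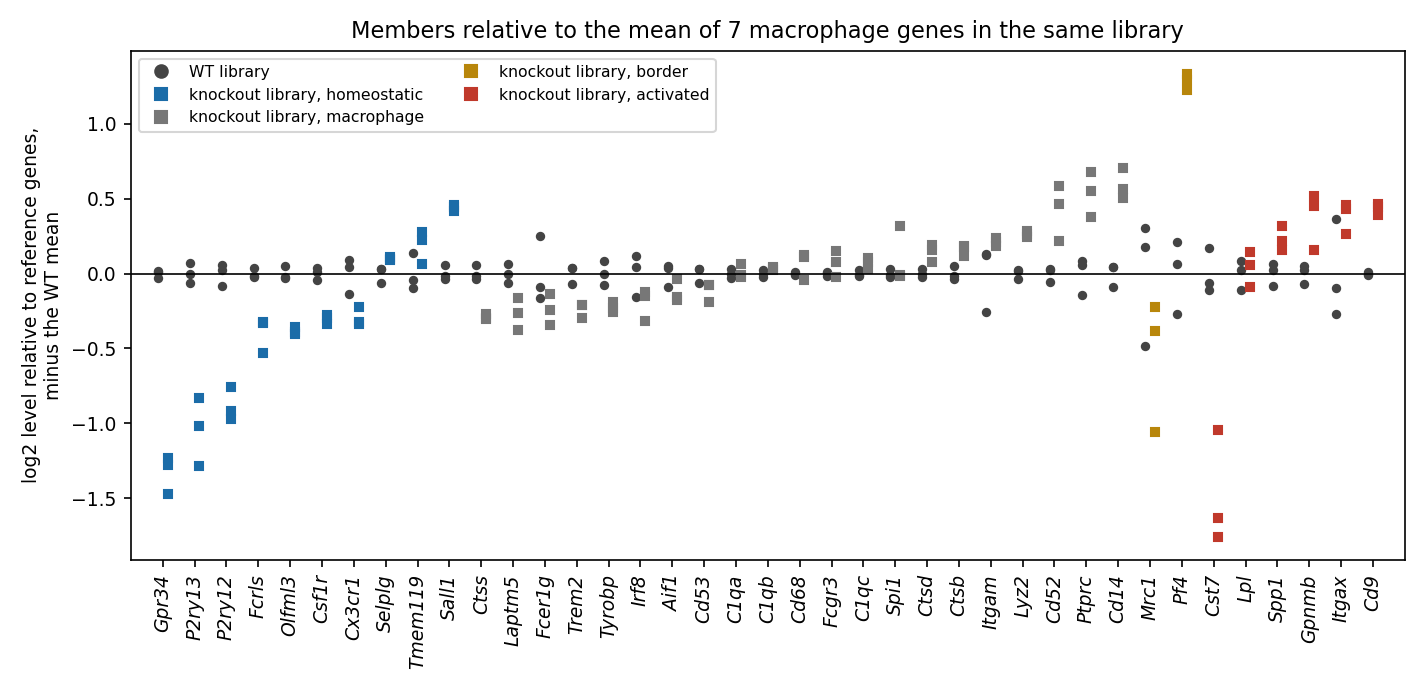
Log2 level of each tested gene relative to the mean of 7 macrophage genes in the same library, minus the WT mean (vertical axis), with 1 dark circle per WT library and 1 coloured square per knockout library. Gpr34, P2ry13, P2ry12 and Cst7 lie furthest below 0 in the knockout (means of -1.33, -1.04, -0.88 and -1.48), and the C1q genes lie near 0.

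Microglial genes beyond the 41 were read from lists of other genes. Of 20 further homeostatic genes 19 were tested, 16 fell and none rose, with a median log2 fold change of -0.45, and 12 to 15 fell when 1 library was left out. Among those with a mean log2 CPM of at least 1, Ltc4s, which makes leukotriene C4, changed most (-1.25, SE 0.2), followed by the transporter gene Slco2b1 (-0.90, SE 0.097). Of 20 further activation genes 19 were tested, 6 fell and 6 rose, with a median of -0.071. Csf1, among the 6 that rose, is also counted among the ligand genes above. Clec7a, the beta-glucan receptor dectin-1, fell from 24.3 ± 0.816 to 13.2 ± 0.682 CPM (-0.87, SE 0.082), and Mmp12, a macrophage elastase, rose from 46.9 ± 2.33 to 80.8 ± 6.77 CPM (0.78, SE 0.07). The number that rose was 3 without WT replicate 1 or 3 or any 1 of the knockout libraries. Apoe, at 14325 ± 1237 and 10753 ± 225 CPM, fell by 0.41 (SE 0.059) and is also made by astrocytes and radial glia, and was named after its values were seen.

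Markers of other cells were read beside these results, and their part in them was not tested. Of 20 markers of other blood cells, 12 had at most 3 counts in every library, among them the T cell genes Cd3d and Cd3e and the neutrophil genes S100a8 and Ly6g. The summed level of this list was 16.2 to 18.9 CPM in WT and 4.45 to 6.05 CPM in the knockout, most of it from Ighm, which fell by 2.04 (SE 0.15). Markers of astrocytes and radial glia had a summed level of 4782 to 4925 CPM in WT and 4904 to 5105 CPM in the knockout, with 3 of 10 lower and 3 higher, and the largest changes in S100b (-0.65, SE 0.12) and Aldh1l1 (0.49, SE 0.052). For the oligodendrocyte lineage the sums were 453 to 492 and 423 to 441 CPM (1 of 8 tested lower, 1 higher: Cspg4 (0.38, SE 0.11) and Cnp (-0.25, SE 0.051)), and for neurons 254 to 329.9 and 274 to 290.2 CPM (2 of 7 lower, among them Tubb3 (-0.81, SE 0.16)). Fibroblast, mural and endothelial genes were higher in sum, 576 to 616 CPM in WT and 730.04 to 817 CPM in the knockout, with 7 of 8 tested genes higher and 1 lower, and the largest changes in Flt1 (-1.58, SE 0.13) and Dcn (1.25, SE 0.18). The 7 that rose were the fibroblast and mural genes Col1a1, Col1a2, Col3a1, Dcn, Lum, Pdgfrb and Acta2. The endothelial genes Pecam1, Cdh5 and Cldn5 and the mural gene Rgs5 had too few counts for a test, at most 5, 26, 1 and 11 in a library.

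**Figure D4:**
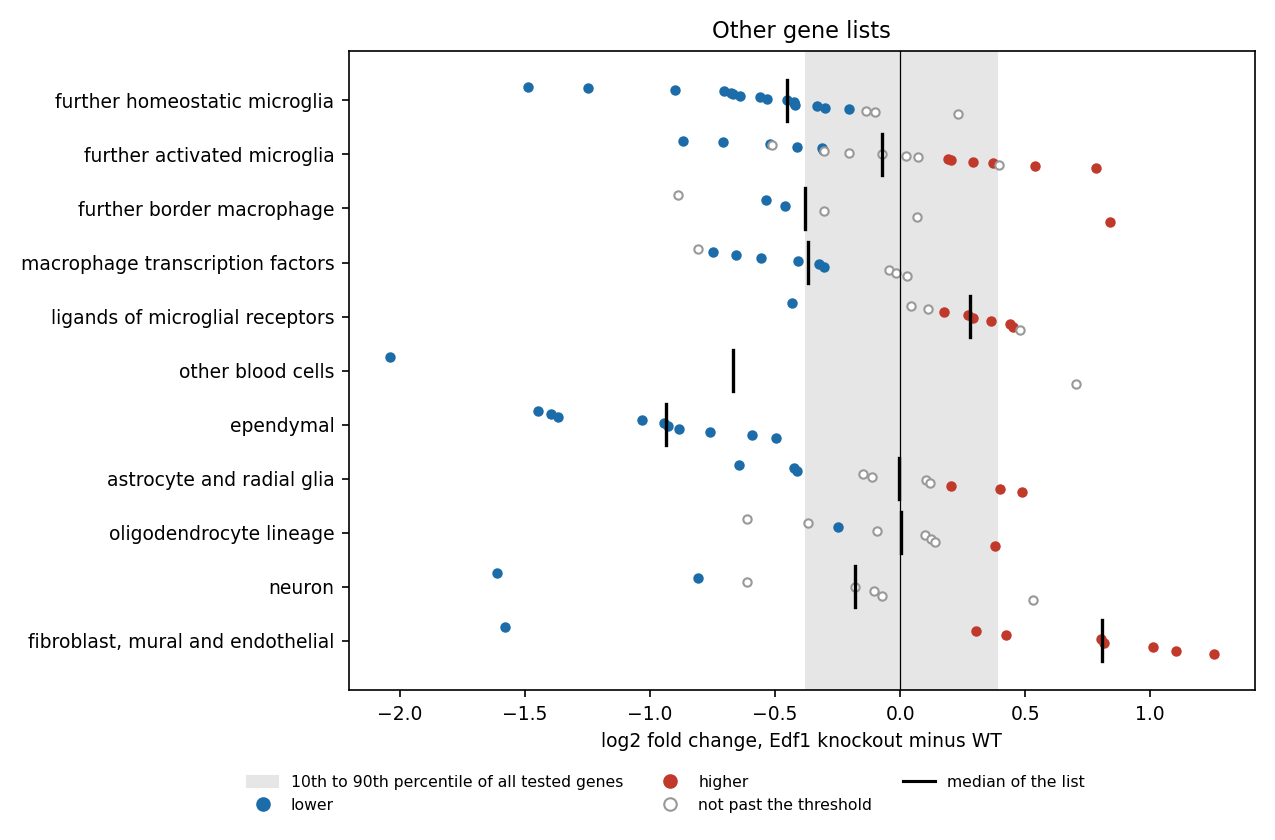
Log2 fold change of Edf1 knockout against WT (horizontal axis) for the tested genes of 11 other lists, with 1 point per gene, a black line at each list's median and a grey band from the 10th to the 90th percentile of all tested genes (-0.38 to 0.39). Further homeostatic genes lie mostly left of 0 (median -0.45), further activation genes on both sides (-0.071), and ligand genes mostly to the right (0.28).

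The counts of some of these genes cannot be fully told apart from those of an overlapping or like gene. Of the 31-base stretches of the transcript, 74.12% of Itgam also occur in another gene, in most part Gm49368, 37.15% of Ctsd (most in Gm49369), 21.95% of Cd9 (most in Gm26728), 12.75% of Itgax (most in Itgad) and 10.22% of Spp1 (most in Gm42793). Exons of Cd52 overlap those of Crybg2 on the opposite strand over 14.49% of their length. None of the 4 receptors Gpr34, P2ry12, P2ry13 and Cx3cr1 shared more than 3.22% of its stretches with another gene.

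Compared per kilobase of transcript, the microglial genes spanned a wide range of abundance in WT. Per kilobase, Ctsd had 1451 CPM, Lyz2 595 CPM, Ctss 422 CPM and Tyrobp 169 CPM. Fcrls had 123 CPM per kilobase, and among Csf1r and the 4 purinergic, chemokine and orphan receptors the order in WT was Csf1r with 62.7 CPM per kilobase, then Cx3cr1 with 19.3, Gpr34 with 18.9, P2ry12 with 8.82 and P2ry13 with 3.72. In the knockout Gpr34 stood at 5.49 CPM per kilobase against 11.4 for Cx3cr1, whereas the WT levels per kilobase were nearly equal. That near equality depends on the transcript lengths used. The WT means before this scaling were 39.5 CPM for Gpr34 and 86.6 CPM for Cx3cr1.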

How the data were processed

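RNA of 6 cultures was sequenced from libraries made with the MGIEasy mRNA kit after TRIzol extraction, per the labels' protocols. Per the submitters' processing notes, GRCm38, FastQC 0.11.2, cutadapt 1.11 and HISAT2 2.1.0 were used; the counting program, annotation and strand setting are not given in the sources used here. The deposited table holds raw counts per gene symbol, 1 column per library, with 0 unused sample columns.

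Counts were analysed in R 4.3.3 with edgeR 4.0.16: filterByExpr, TMM factors (0.985 to 1.01), and the quasi-likelihood test of knockout against WT on all 6 libraries without covariates, with Benjamini-Hochberg adjustment over 14243 genes. Each SE was obtained from the log2 change and the F statistic (change over root F). Log2 CPM used a prior count of 2, and at most 3 counts was treated as the floor. The p-values set the difference between the genotypes against the spread between these cultures. How far that spread covers animals or founder lines is not known.

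The genes, lists and rules were chosen with earlier results of these data known. Values in every library are given for the 8 contrasted genes and, in each role group, for the most abundant gene and that with the largest change; in other lists the 2 genes with the largest called change and a mean log2 CPM of at least 1 are named. Alternatives were DESeq2 1.42.0 and its size factors, library size alone, limma 3.58.1 (voom), other filters, a threshold of 0.01, a replicate block and leaving out each library. The fits were also run on simulated counts with the same spread for every gene, a simpler setting than these data. No result here rests on that run. Some items are not reported here. Sequence sharing and exon overlap came from GENCODE M21, and start windows from RefSeq. Transcript length is that of the longest protein-coding transcript.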

Additional observations from a re-analysis of the deposited data

How the results depend on the processing

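Of the 31 called microglial genes, 27 kept call and direction in each of the 13 alternatives at the 0.05 threshold in which they were tested (Cst7 in 12, as it is not tested with a mean of at least 50 counts), Itgam, Lyz2, Spi1 and Pf4 lost the call in at least 1, and 0 reversed. The number of microglial genes that fell was 29 to 31 in every alternative, 29 at a threshold of 0.01, while the count over all genes fell from 3833 to 2213 at that threshold and ran from 2658 to 4340 when 1 library was left out. The number that rose was 1 (Pf4) and became 0 with a mean of at least 50 counts (Pf4 is then not tested), in DESeq2 and at 0.01, and was 0 to 1 when 1 library was left out. The median of the homeostatic contrast genes stayed between -1.09 and -1.02. That of the activation genes was -0.23 to -0.058, and the difference -0.96 to -0.85, when 1 library was left out, with the values closest to and furthest from 0, -0.058 and -0.96, without WT replicate 1; the cause was not tested. Genes that did not pass changed sign when 1 library was left out: Sall1 ran from -0.035 to 0.0074, Ptprc from -0.071 to 0.075, Cd52 from -0.12 to 0.079, Itgax from -0.22 to 0.11 and Gpnmb from -0.15 to 0.0197. No scaling moved the median of all genes by more than 0.016. With the replicate number as a block 4065 genes changed in all, 31 microglial genes fell and 1 rose, the medians were -1.05 and -0.16 and the difference -0.89, and Tmem119 passed at -0.27 (adjusted p = 0.0438 by edgeR). Same-numbered libraries deviated together with correlations of 0.0693, 0.0604 and 0.0372, against -0.0719 to 0.0288 for differently numbered ones. The same-numbered values were the higher ones but all were small. The main fit did not pair the libraries, because the labels name no factor beyond genotype and replicate number. A pairing is not excluded. Depth limits Siglech, Cd163, Cst7, Pf4, Mrc1 and Itgax, the genes with the fewest counts.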
